A study of Mus musculus with 2 samples.

Results

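The genes described here encode the hormones of the anterior pituitary (Gh, Prl, Pomc, Cga, Tshb, Lhb and Fshb), a transcription factor of the cells that make some of them (Pou1f1), and receptors that pituitary cells carry for hypothalamic signals (Ghrhr and Trhr). They were taken as a list of 10 genes, and every probe set whose annotation held only the symbol of a listed gene was used. This gave 14 probe sets for 9 genes, out of 34945 probe sets and 18193 genes with a single symbol, and no probe set carried Pou1f1 alone. The genes were chosen by their signals on these same arrays, since several were already seen to differ between the pools, so every value below is a description and none is tested.

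The series compared cerebral cortex of Gnmt knockout and wild-type mice on Affymetrix expression arrays. Gnmt encodes glycine N-methyltransferase, which uses S-adenosylmethionine to methylate glycine. One array was hybridised with cortex RNA of 3 male mice titled as knockouts, and the other with cortex RNA of 3 wild-type males, each pool being mixed in equal parts from animals aged 4 weeks on a 129/B6 background. Neither genotype had a replicate array. No difference between the pools was therefore testable, and each value belongs to these pools alone.

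The labels of the knockout-titled sample were contradictory, and it is called KO-labelled throughout. Its genotype entry reads wild-type, and the labels do not say which part of Gnmt was deleted. The Gnmt probe set had 21.5 units in the KO-labelled pool and 10 units in the wild-type pool, both under the floor of 64.2 units, below which a signal was treated as not measured. Xist, the noncoding RNA by which female cells silence an X chromosome, had 2560.3 units in the KO-labelled pool, against 49.6 units in the wild-type pool, although both are labelled male. The median signal of all probe sets was 124.9 units in the KO-labelled array and 92 units in the wild-type array.

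The anterior pituitary lies below the hypothalamus and outside the cerebral cortex. Its somatotrophs make growth hormone, lactotrophs prolactin, corticotrophs the precursor pro-opiomelanocortin, thyrotrophs thyrotropin, and gonadotrophs luteinizing and follicle-stimulating hormone. Thyrotropin and the gonadotropins pair a common alpha chain, encoded by Cga, with a beta chain of their own. POU1F1 is needed for somatotrophs, lactotrophs and thyrotrophs. Pomc is also transcribed in neurons of the hypothalamus, and growth hormone and prolactin transcripts have been described at low level in the brain.

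Promoter sequences are shown for the hormone genes that were at least 2-fold lower in the KO-labelled pool and had an entry in the promoter table, because these genes were lower together. Of the 10 genes, 7 had an entry, and Gh, Ghrhr and Trhr are only named. Each line gives the 250 bases before an annotated transcript start, from RefSeq on build GRCm38.p6, 5′ to 3′ on the strand of the gene. Capitals mark the motif TATAAA of the basal promoter, the POU1F1 motif ATGNATA and the NR5A1 motif TGACCTTG, searched on both strands, and overlapping matches run together.
Prl, chr13:27057320-27057569, plus strand: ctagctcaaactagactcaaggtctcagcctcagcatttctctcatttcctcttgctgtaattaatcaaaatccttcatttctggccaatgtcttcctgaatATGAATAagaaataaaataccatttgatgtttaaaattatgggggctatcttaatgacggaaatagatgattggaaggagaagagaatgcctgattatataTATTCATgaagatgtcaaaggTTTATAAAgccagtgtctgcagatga
Pomc, chr12:3954695-3954944, plus strand: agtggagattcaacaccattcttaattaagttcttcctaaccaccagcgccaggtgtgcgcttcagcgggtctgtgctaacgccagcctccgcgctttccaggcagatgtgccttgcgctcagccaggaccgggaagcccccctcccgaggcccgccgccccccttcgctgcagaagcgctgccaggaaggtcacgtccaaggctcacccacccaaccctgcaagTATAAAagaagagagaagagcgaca
Cga, chr4:34893529-34893778, plus strand: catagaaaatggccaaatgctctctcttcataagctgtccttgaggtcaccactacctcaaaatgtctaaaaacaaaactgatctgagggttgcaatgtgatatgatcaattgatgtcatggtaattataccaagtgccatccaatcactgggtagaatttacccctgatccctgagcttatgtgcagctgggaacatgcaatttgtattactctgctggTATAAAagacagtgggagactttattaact
Lhb, chr7:45420696-45420945, plus strand: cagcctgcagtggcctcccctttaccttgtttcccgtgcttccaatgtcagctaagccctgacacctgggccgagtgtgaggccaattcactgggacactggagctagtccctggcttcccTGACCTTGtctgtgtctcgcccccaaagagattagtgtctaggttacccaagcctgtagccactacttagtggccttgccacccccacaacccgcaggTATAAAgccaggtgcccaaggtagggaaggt

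The windows had different matches. Prl held ATGNATA at 148 bases before the start and, on the opposite strand, at 47 bases, counted to the first base of the match. Besides Prl, 1 of the 2 windows of Pou1f1 held it, at 57 bases, where it overlapped a TATAAA, and the Tshb window did not. Over all 32851 promoter windows of that length, 7.92% held ATGNATA. TGACCTTG was found in Lhb, at 129 bases, and in no other window of the hormone genes, and 1.33% of all windows held it. TATAAA was present in 7 of the 8 windows of these genes, between 24 and 33 bases before the start at its nearest, against 12.4% of all windows. The cyclic AMP response element TGACGTCA and the PITX1 motif TAATCC, in 1.55% and 6.25% of all windows, matched none of them. These are matches of letters in fixed windows, and no binding was measured.

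All of the hormone and receptor probe sets had a lower signal in the KO-labelled pool than in the wild-type pool. Of the 14 probe sets, 14 were lower by some amount, where 47.9% of all probe sets with a single symbol were. Signals reached the floor for 4 genes in the KO-labelled pool, namely Gh, Pomc, Tshb and Trhr, and for these and 4 more in the wild-type pool, 8 in all. By the brightest probe set of each gene, 6 of the 8 genes above the floor on at least 1 array were 2-fold or more lower in the KO-labelled pool and 0 were that much higher, while over all 13666 such genes 6.7% were lower and 3.77% higher. At 4-fold, 5 of the 8 were lower, against 0.71% of all genes. The median log2 ratio of KO-labelled over wild-type was -2.55 for the 8 genes and -0.05 for all genes. These genes were listed because of this contrast, so nothing is read from the size of their share. In whole tissue, fewer cells of a type and less RNA per cell cannot be told apart.

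**Figure D1:**
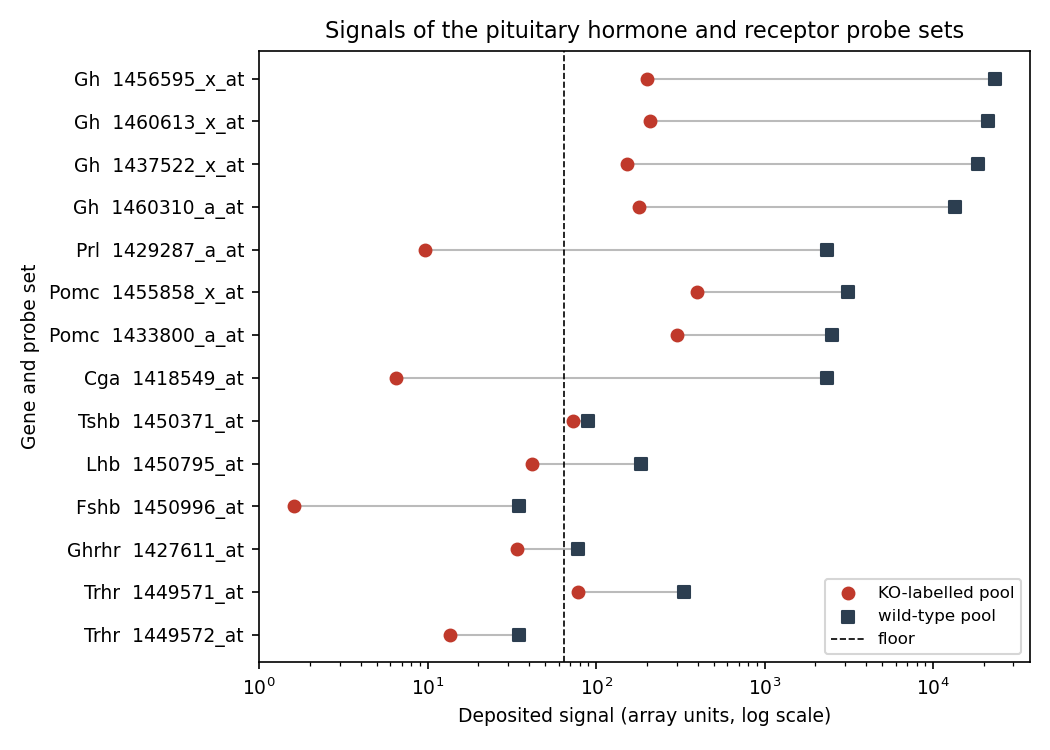
Deposited signal (array units, log scale) of each probe set, in the KO-labelled pool (red circles) and the wild-type pool (dark squares), with the floor of 64.2 units as a dashed line. In all 14 probe sets the KO-labelled signal is the lower one, with the widest gaps above the floor for Gh, Prl and Cga.

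Growth hormone had the lowest ratio of any gene measured on both arrays. Gh, which encodes the hormone that drives body growth through the liver and other tissues, had probe set signals of 200, 209.3, 153.1 and 179.2 units in the KO-labelled pool, against 23222.9, 21256.8, 18547.6 and 13550.3 units, in the same order, in the wild-type pool. The 4 probe sets gave 117-fold, 102-fold, 122-fold and 76.2-fold lower signals in the KO-labelled pool. Their log2 ratios had a median of -6.77 with an SD of 0.31 between probe sets. That SD describes probes read on the same RNA, not mice. The KO-labelled signals were still above the floor in all 4.

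Prolactin, the paralog of growth hormone that acts on the mammary gland and the gonads, was measured in the wild-type pool alone. The single Prl probe set had 9.7 units in the KO-labelled pool, below the floor, against 2350.6 units in the wild-type pool, so its signal was at least 36.9-fold lower in the KO-labelled pool. Other genes of the prolactin family, which are known mainly from placenta and decidua, had no measured signal in either pool. All 17 of them with a probe set of their own were under the floor on both arrays, with highest signals of 54.8 units in the KO-labelled pool and 60.4 units in the wild-type pool.

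Pomc, the precursor gene of corticotropin, melanocortins and beta-endorphin, was lower but stayed well above the floor. Its probe sets had 394.3 and 302.7 units in the KO-labelled pool, against 3126.5 and 2499.9 units in the wild-type pool. They gave 7.99-fold and 8.33-fold lower signals in the KO-labelled pool, a smaller difference than any of the Gh probe sets. Among the 12244 genes measured on both arrays, Pomc had the ninth lowest ratio and Gh the lowest.

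The glycoprotein hormone chains differed in how far they could be measured. The Cga probe set, for the common alpha chain, had 6.5 units in the KO-labelled pool and 2361.7 units in the wild-type pool, at least 37.1-fold lower in the KO-labelled pool. Of 659 genes that reached the floor only in the wild-type pool, 2 had a bound of at least 16-fold (0.303%), Prl and Cga. Both genes were listed because of this contrast. Their bounds follow from the wild-type signal and the floor, so nothing is read from that count. Lhb, the beta chain of luteinizing hormone, had 41.5 units in the KO-labelled pool, below the floor, and 183.6 units in the wild-type pool, at least 2.88-fold lower in the KO-labelled pool. Tshb, the beta chain of thyrotropin, had 72.7 units in the KO-labelled pool and 89.2 units in the wild-type pool, which is 1.24-fold lower and close to the floor in both. Fshb, the beta chain of follicle-stimulating hormone, had 1.6 units in the KO-labelled pool and 35 units in the wild-type pool, both below the floor, so no ratio is given. The bounds follow the floor: at its 25th and 60th percentile settings they were 84.9-fold and 11.6-fold for Prl and 85.3-fold and 11.6-fold for Cga. Lhb was 4.60-fold lower with the floor at the 25th percentile, where it was measured in both pools.

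The releasing hormone receptors had modest signals. Trhr, the receptor for thyrotropin-releasing hormone on thyrotrophs and lactotrophs and also on some neurons, had 78.4 units in the KO-labelled pool and 333.1 units in the wild-type pool by its brighter probe set, 4.28-fold lower in the KO-labelled pool. Its other probe set was below the floor on both arrays, at 13.6 units in the KO-labelled pool and 35 units in the wild-type pool. The Trhr difference rested on a signal just over the floor, and with a floor at the 60th percentile it was a bound of 1.64-fold. Ghrhr, the receptor through which growth hormone-releasing hormone acts on somatotrophs, had 34 units in the KO-labelled pool, below the floor, and 78.5 units in the wild-type pool, a bound of 1.23-fold. With the floor at the 25th percentile its ratio was 2.40-fold lower in the KO-labelled pool.

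The size of a ratio is to be set against the disagreement between probe sets. Over 5375 genes with at least 2 measured probe sets, the error of a single probe set had an SD of 0.58 on the log2 scale, or 1.49-fold. A 2-fold ratio was under 2 of these SDs. This error is between probe sets read on the same 2 arrays, and it holds no variation between arrays, pools or mice. Gh and Pomc had several probe sets above the floor, whereas Prl, Cga, Lhb and Trhr rested on 1 probe set each. All probe sets of Gh, Pomc and Prl had names with a suffix (_x_at or _a_at), so none of these genes had a probe set without one.

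**Figure D2:**
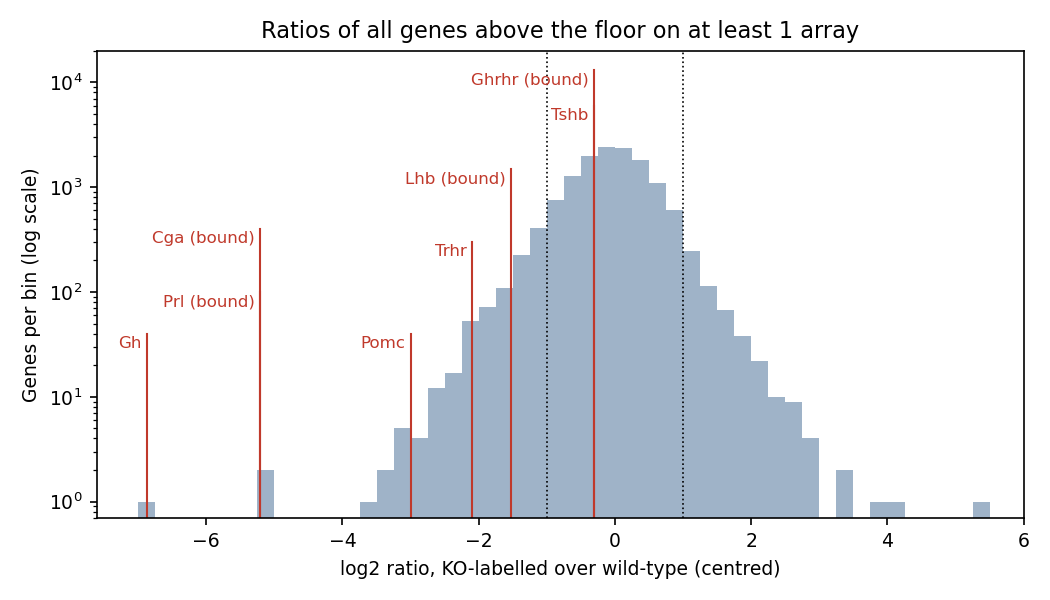
Number of genes (log scale) by log2 ratio of KO-labelled over wild-type signal, for the 13666 genes above the floor on at least 1 array, with the pituitary hormone and receptor genes as red lines and 2-fold as dotted lines. Lines named as bounds are genes below the floor in the KO-labelled pool. Gh, Cga and Prl lie to the left of all other genes, and Tshb lies within 2-fold, as does the bound of Ghrhr.

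Outside these genes, none had a ratio or bound as low as those of Gh, Prl and Cga. The 5 most like them, by the lowest ratio over the 2 arrays, were Rpl22l1, a ribosomal protein paralog with 651.4 units in the KO-labelled pool and 8042.8 units in the wild-type pool, Serpina3n, a protease inhibitor gene of reactive astrocytes, Zfp931, Zfp386 and Cfap36, with log2 ratios between -3.64 and -3.05. Zfp386 was below the floor in the KO-labelled pool, so its value is a bound.

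Transcription factors of pituitary development were mostly unmeasured in both pools. Of 16 listed, 14 had a probe set of their own and 10 were below the floor on both arrays, among them Pitx1, a regulator of Pomc, Tbx19, the corticotroph factor, Lhx3, needed to form the gland, and Hesx1, an early factor of it. The other 4 had a median log2 ratio of 0.18, and the 3 of them measured on both arrays lay within 2-fold. Neurod1 and Sox2, which brain cells also express, had ratios of -0.59 and 0.12, and Gata2, a thyrotroph and gonadotroph factor, had 0.46. Nr5a1, the gonadotroph factor SF-1, had 77.1 units in the KO-labelled pool and 3.2 units in the wild-type pool, a bound of 1.19-fold higher. That bound was 2.57-fold with the floor at the 25th percentile and the ratio 22.2-fold without a floor, opposite in direction to the hormone genes. It rested on a signal just over the floor of 64.2 units and on 1 of 2 Nr5a1 probe sets, the other being below the floor on both arrays. The brightest probe sets of all 14 summed to 3335 units in the KO-labelled pool and 3271 units in the wild-type pool. Most of this was Sox2, with 1893.6 and 1733 units in that order, and Neurod1, with 686.6 and 1026.8 units. The sums therefore say little about the factors that brain cells lack. Of the 4 above the floor, 0 were 2-fold lower, where 6.7% of all genes were. The other 10 were too dim for a difference to be detectable.

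Hypothalamic hormones and peptides measured in both pools lay within 2-fold. Of 15 listed, 12 had a probe set of their own, 10 were above the floor on at least 1 array, and 7 were measured on both, all within 2-fold. Over all genes, 6.7% were 2-fold lower and 3.77% higher, so most genes of any kind lay within 2-fold. The 10 had a median log2 ratio of 0.04, which turned to -0.13 with quantile normalization, -0.05 with the floor at the 25th percentile and -0.11 without a floor. The brightest probe sets of all 12 summed to 7814 units in the KO-labelled pool and 9493 units in the wild-type pool. Most of this was Sst, with 4658.1 and 6438.6 units in that order. The sums therefore say little about the other genes of the list. Hcrt, encoding the orexins of the lateral hypothalamus, and Sst, encoding somatostatin, which cortical interneurons also make, were lowest at -0.57 and -0.48. Cartpt, encoding an appetite-related peptide, was highest at 0.82, and Pmch, encoding melanin-concentrating hormone, gave a bound of 0.20 that turned to -0.13 with quantile normalization. Avp, for vasopressin, and Ghrh, for growth hormone-releasing hormone, were below the floor on both arrays.

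Receptors on either side of the pituitary that were measured in both pools also lay within 2-fold, Sstr3 only just. Of 14 receptors for signals that reach pituitary cells, 10 were above the floor on at least 1 array and 9 on both. Of the 9, 0 were 2-fold apart, where over all genes 6.7% were lower and 3.77% higher. The median of the 10 was -0.29. Sstr3, a somatostatin receptor, was lowest at -0.99, against 0.40 for a further Sstr3 probe set, and passed 2-fold under 5 of 8 alternatives, reaching 2.17-fold with quantile normalization, while the median of its probe sets was 1.23-fold. Gnrhr, the gonadotropin-releasing hormone receptor, was measured in the wild-type pool alone at 94.4 units, a bound of -0.57. Adcyap1r1, the receptor for the peptide PACAP, and Crhr1, for corticotropin-releasing hormone, were highest at 0.60 and 0.32, and the other Crhr1 probe set had -0.77. Among receptors for pituitary hormones themselves, 3 of the 7 with a probe set were above the floor, namely Ghr at -0.08 and the melanocortin receptor genes Mc3r and Mc5r at 0.13 and 0.30, the last a bound. The other measured Ghr probe set had -0.73. Mc3r turned to -0.22 with quantile normalization. With the floor at the 25th percentile 1 gene of this list, the follicle-stimulating hormone receptor gene Fshr, passed 2-fold higher.

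Genes through which growth hormone acts mostly lay within 2-fold. Of 17 genes of growth hormone signalling and insulin-like growth factors, 14 were above the floor. Of these, 1 was 2-fold or more lower and 1 was 2-fold or more higher in the KO-labelled pool. Their median log2 ratio was 0.22. Over all genes, 6.7% were lower and 3.77% higher, so most genes of any kind lay within 2-fold. Igfbp2, a binding protein of the growth factors, had 646.2 units in the KO-labelled pool and 1431.5 units in the wild-type pool, 2.23-fold lower. Igf1r, their receptor, had 2865.8 units in the KO-labelled pool and 1057.7 units in the wild-type pool, 2.69-fold higher, and its 5 probe sets lay between 0.58 and 1.91. Socs2, a feedback inhibitor of growth hormone signalling, had 0.61 by its brightest probe set, but its 5 measured probe sets ran from -0.54 to 1.79. Stat5a, a transcription factor of that signalling, had -0.46.

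Genes that store and cleave prohormones differed in both directions. Of 10 genes above the floor for granins and processing enzymes, 5 were 2-fold or more lower in the KO-labelled pool and 1 was 2-fold or more higher. Over all genes, 6.7% were lower and 3.77% higher. The median of the 10 was -0.81. Scg3 and Scg2, encoding secretogranins of the dense-core granule, were 5.31-fold and 4.67-fold lower, while Pam, which amidates peptide ends, was 3.08-fold higher and Cpe, which trims them, had a ratio of 0.03 and -1.21 by its other probe set. Neurons express these genes as well, and none had a ratio as low as Gh, Prl or Cga. Scg3 and Scg2, at -2.41 and -2.22, were however lower than Trhr at -2.10 and the Lhb bound of -1.53. They were also lower than Tshb at -0.31 and the Ghrhr bound of -0.30.

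**Figure D3:**
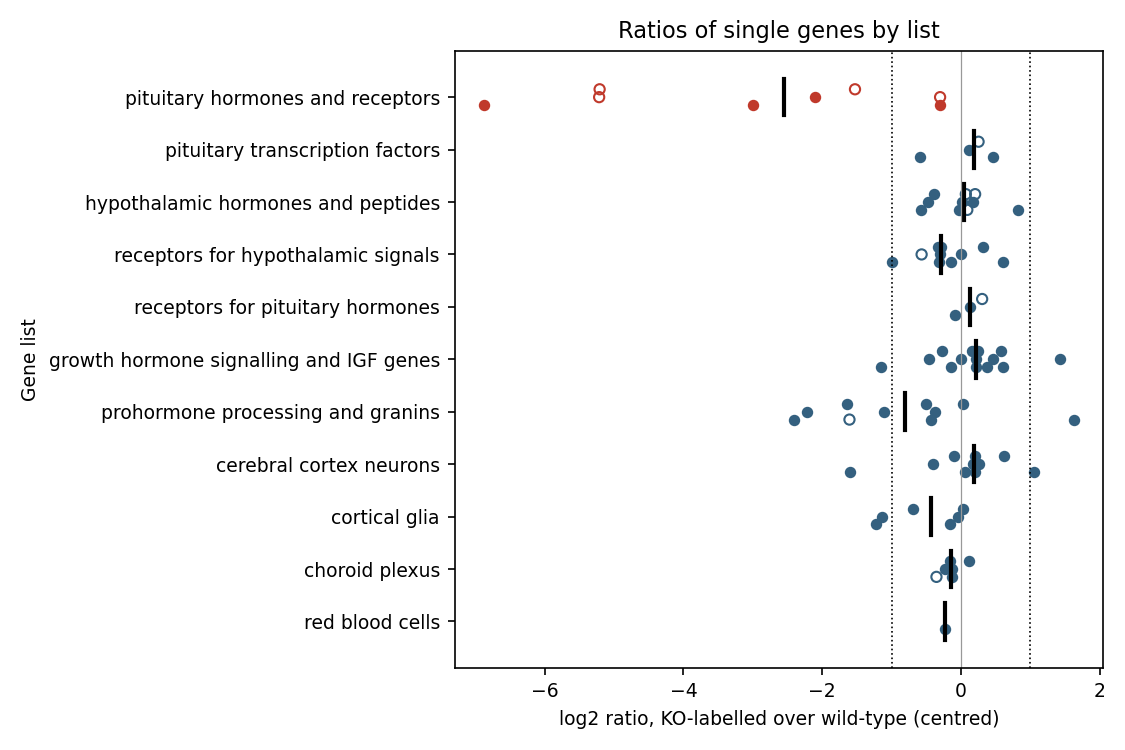
Log2 ratio of KO-labelled over wild-type signal for single genes (points) in each list, with list medians as black bars and 2-fold as dotted lines. Open points are bounds for genes below the floor on 1 array. The pituitary hormones and receptors reach -6.87, and the filled points of the hypothalamic, receptor and choroid plexus lists lie within 2-fold.

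Markers of cortex were present in both pools, and most of those of the choroid plexus lay close together. All 10 cortical neuron markers with a probe set of their own were above the floor on both arrays. They summed to 64909 units in the KO-labelled pool and 62956 units in the wild-type pool. Most of this was Snap25, with 26418 and 28236.9 units in that order, and Gad1, with 15789.9 and 13913.8 units. The sums therefore say little about the other markers. Neurod6 and Fezf2, of excitatory neurons, were lowest at -1.61 and -0.40, and Tbr1 and Cux2, of deep and upper layers, highest at 1.06 and 0.62. Of 6 glial markers, 2 were at least 2-fold lower in the KO-labelled pool, where 6.7% of all genes were. They were Gfap at -1.23 and Aqp4 at -1.13, both astrocyte genes. However, the 3 Aqp4 probe sets ran from -1.33 to 1.60, and 1 glial marker was 2-fold lower with quantile normalization. The glial list summed to 40861 units in the KO-labelled pool and 46768 units in the wild-type pool. Most of this was Mbp, with 32079.6 and 32802.4 units in that order. Pdgfra and Mbp had 0.03 and -0.04, where other Mbp probe sets reached 4.15. Markers of the choroid plexus, which lines the ventricles in places, were within 2-fold for the 5 genes measured on both arrays, with Ttr at 34818 units in the KO-labelled pool and 37694 units in the wild-type pool. Slc4a5 and Kcnj13 were lowest at -0.35 (a bound) and -0.24, and Kl was highest at 0.12. Slc4a5 was 1.95-fold lower with the floor at the 25th percentile and 2.04-fold lower without a floor. Alas2, the single measured gene of red blood cells, had -0.23. The part of the granin, astrocyte and Xist differences in the hormone ratios was not tested and, with 1 array per pool, could not be.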

How the data were processed

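Cortex RNA of 2 pools of 3 mice each was read on 1 array per pool. Per the labels' protocols, Trizol was used for extraction and 5 micrograms of RNA for the biotinylated cRNA. The deposited values are linear intensities, 1 per probe set, and the submitters' processing notes name GCOS, the Affymetrix software; neither its version nor how the signal was derived is stated there, and detection calls were not used here. Both deposited columns had a mean of 500 after 2% of values was trimmed at either end, so a common scaling had been applied.

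Samples were grouped by title. The floor was set at the 40th percentile of the signals of both arrays, controls left out. The log2 ratio of KO-labelled over wild-type was centred on its median, 0.01, over probe sets at or above the floor on both arrays. A single gene symbol was given for 34945 of 45037 non-control probe sets, several for 932 and none for 9160; symbols were updated through RefSeq (GRCm38.p6) for 34741 that matched by identifier. Each gene was represented by its brightest probe set (mean log2 signal). Where 1 array was below the floor, the other signal over the floor, centred alike, is given as a bound. Counts use 2-fold. No p-value was calculated. The precision is limited by the number of arrays.

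The genes and the 11 other lists were chosen with earlier results of these data known. Named genes were all 10 listed ones, the 2 lowest and 2 highest of each list and the 5 other genes with the lowest ratio. Gnmt and Xist were named as well. Further genes named as below the floor, or as most of a sum, were chosen after their values were seen. A list gene without a probe set of its own is not analysed here. The planned comparison of protein sequences was not made. The calculations were tested on simulated data. Alternatives were other floors (25th or 60th percentile, or none), no centring, quantile normalization, loess (fraction 0.3), the median over probe sets, and suffixed probe sets left out; use of the second brightest probe set was an alternative chosen after seeing the data. Python 3.11.15, numpy 2.4.6, pandas 2.3.3, statsmodels 0.14.6 and matplotlib 3.10.9 were used.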

Additional observations from a re-analysis of the deposited data

How the results depend on the processing

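No paired analysis was possible because there was 1 array per genotype, and for the same reason no replicate could be left out. Values are called moved where they shifted by more than the probe set error SD of 0.58 or, for counts, by more than 1.5 times. All 8 measured hormone and receptor genes kept a negative log2 ratio under every alternative that gave them a value, and 0 were 2-fold higher under any. The genes were listed because of this contrast, so nothing is read from the sign. For genes measured in the wild-type pool alone, the sign follows from how the bound is set. Gh stayed between -6.98 and -6.68 and Pomc between -3.10 and -2.93 over their 8 alternatives, the scalings included. The floor decided the bounds. With the floor at the 25th percentile, Cga and Prl both had log2 ratios of -6.41, Lhb -2.20 and Ghrhr -1.26. With it at the 60th, Cga had -3.54, Prl -3.53 and Trhr -0.72. Without a floor, Cga had -8.62, Prl -8.04, Lhb -2.26 and Ghrhr -1.32. Of the hormone and receptor genes, 7, 4 and 8 were at least 2-fold lower under these floors, in that order, against 6. With suffixed probe sets left out, Gh, Prl and Pomc had no probe set left. Then 3 of the 5 measured genes were 2-fold lower, against 942 of 12630 over all genes. Over all genes, 1418 were 2-fold lower and 842 higher with the floor at the 25th percentile, 552 were lower at the 60th, and 2650 were lower and 1808 higher without a floor, against 915 and 515. In the other lists, 5 genes were 2-fold higher with the floor at the 25th percentile, and without a floor 21 were lower and 13 higher, against 9 and 3. By construction these floors change which genes are measured. Signals near the floor, such as those of Tshb and Ghrhr, limit what these arrays can show.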
